A study of Mus musculus with 12 samples.

Results

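The genes described here are the 39 nuclear genes for subunits of respiratory complexes II to V, taken by name from the 24411 genes of the deposited tables. They comprise 4 genes of complex II (Sdha to Sdhd), 9 of complex III (Uqcr genes and Cyc1), 11 of complex IV (Cox genes) and 15 of complex V (Atp5 genes). All 39 were listed, and all 39 passed the filter on low counts that left 14743 genes to be tested. Poly(A) RNA came from pools of 10 blastocysts each, grown from in vitro fertilised oocytes of superovulated wild-type ICR mice to 96 hpi. Embryos labelled siNampt received siRNA against Nampt by electroporation at the one-cell stage (3 to 6 hpi), and those labelled siNT a non-targeting siRNA. Those labelled C are named controls with no siRNA stated. The sample records give the same electroporation window for every library, those of C included. Each treatment was applied to embryos labelled HFD and to embryos labelled ND, which gave 6 groups (HFD siNampt, ND siNampt, HFD siNT, ND siNT, HFD C and ND C) of 2 libraries. The series title speaks of obese and normal-weight mice, but the labels do not spell out HFD and ND or say which parent carried the difference. The 2 libraries of a group carry the batch labels 1 and 2, and nothing states that they came from separate animals, so p-values measure the spread between these libraries, which may be technical. A pool mixes embryos of unrecorded sex, and the siRNA acts transiently from the one-cell stage on.

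Complex II (succinate dehydrogenase) passes electrons from succinate to ubiquinone, complex III (the cytochrome bc1 complex) from ubiquinol to cytochrome c, and complex IV (cytochrome c oxidase) from cytochrome c to oxygen. Complexes III and IV pump protons, and complex V (ATP synthase) uses the gradient to make ATP. Complex II is encoded wholly in the nucleus, whereas the catalytic centres of complexes III and IV and the proton channel of complex V also need subunits encoded by mitochondrial DNA, which were not analysed here. Oxygen use by the mouse embryo increases at the blastocyst stage, when the trophectoderm pumps fluid into the cavity. Nampt encodes the rate-limiting enzyme of NAD salvage from nicotinamide, and NAD carries electrons to the chain through complex I.

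The libraries held 42473129 to 50503064 expected counts and 16463 to 17924 detected genes. Nampt, the targeted gene, had 50.3 and 44.0 CPM in HFD siNampt and 53.9 and 37.7 in ND siNampt, against 61.3 and 66.0 in HFD siNT and 74.6 and 49.4 in ND siNT, and 67.0 and 57.3 in HFD C and 54.2 and 38.2 in ND C. CPM values here are counts scaled to the library's size after TMM scaling. The lowest siNT value lay below the highest siNampt value, so the groups overlapped. The fitted log2 fold change of Nampt in siNampt against siNT was -0.43 (SE 0.17), with an adjusted p of 0.396 in edgeR's quasi-likelihood test. Markers of the blastocyst lineages were present in every library, with summed trophectoderm markers (12 genes) of 4937 to 8052 TPM (transcript abundance per length, scaled to the library). Summed markers of cumulus cells reached at most 0.52 TPM, and those of sperm at most 5.29 TPM with Tnp1 at 0.

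The subunit genes were among the most abundant messages of the blastocyst. Together they made up 7.01% of all TPM on average, with sums of 62987 to 74396 TPM per library, and 37 of the 39 stood among the 1000 genes with the highest mean TPM. The mean sum was 1136 TPM for complex II, 12609 TPM for complex III, 29698 TPM for complex IV and 26629 TPM for complex V. Levels per length still went with transcript length: over the 39 genes, log2 mean TPM and log2 length had a Pearson r of -0.77 and a Spearman rho of -0.75, given as a description since the genes share their libraries. The median length of the 39 genes was 704 bases, against 2621 bases for all genes tested, and 25 of them were shorter than 1000 bases.

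**Figure D1:**
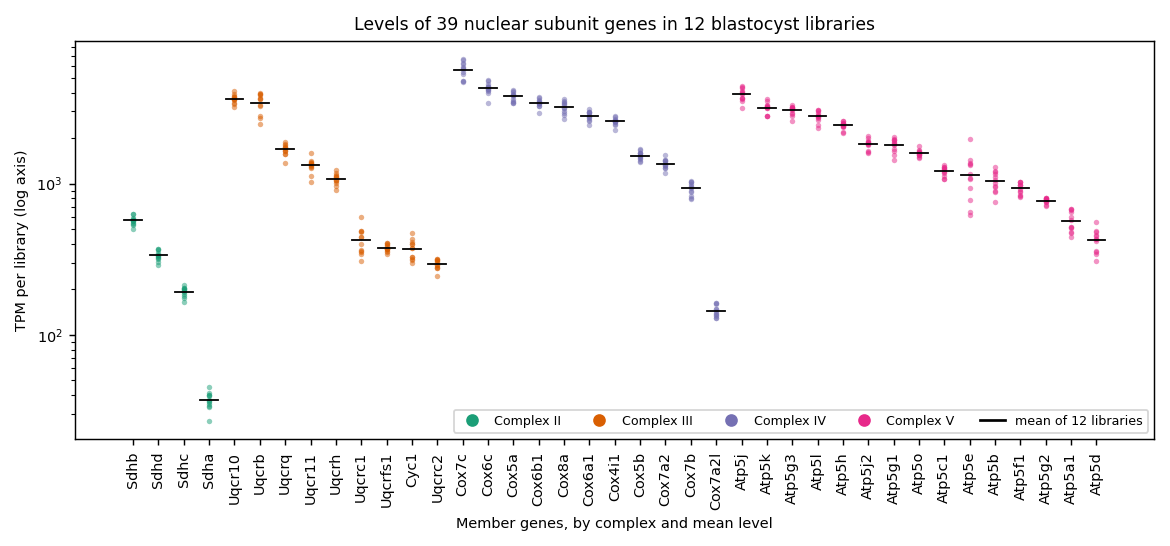
TPM (log axis) of each of the 39 genes in each of the 12 libraries (points), with the mean of the 12 as a line, ordered by complex and by mean. Sdha, at a mean of 37.1 TPM, lay far below the other genes, and Cox7c was highest at 5669.9 TPM.

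Within complex II the levels were uneven. Sdha, the flavoprotein that oxidises succinate, had a lowest, median and highest value of 26.9, 37.0 and 45.4 TPM over the 12 libraries. Sdhb, the iron-sulfur subunit bound to it, had 502, 569.7 and 634 TPM. The ratio of Sdhb to Sdha in TPM ran from 12.5 to 21.3, although the mature enzyme holds them in equal number. The membrane anchors lay between them, with Sdhc at 166, 196 and 214 TPM and Sdhd at 289, 336 and 371 TPM. The 4 genes kept this order (Sdhb, Sdhd, Sdhc, Sdha) in all 12 libraries.

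In complex III the small subunits were far above the large ones. Uqcr10, a small subunit near cytochrome c1, had 3197, 3615 and 4075 TPM (lowest, median, highest). Its mean, 3636.9 TPM, was the highest of the 9 genes. Uqcrc2, one of the large core proteins facing the matrix, was the lowest at 243, 297 and 319.6 TPM. Uqcrb, a small subunit at the ubiquinone site, averaged 3429.8 ± 510.2 TPM (SD, n = 12), and its median, 3624 TPM, lay above that of Uqcr10. The redox subunits Cyc1 (cytochrome c1) and Uqcrfs1 (the Rieske protein) averaged 370.2 ± 54.0 TPM and 377 ± 20.2 TPM.

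Complex IV held the highest member of all, Cox7c, a single-pass membrane subunit, at 4677, 5782 and 6677 TPM. Its lowest gene was Cox7a2l at 129, 141 and 161 TPM, a relative of Cox7a2 that links complexes III and IV in supercomplexes. Cox7a2 itself, the broadly expressed isoform, had 1168, 1343 and 1544 TPM, which was 7.96 to 11.6 times Cox7a2l. Isoforms known from muscle, heart or testis were lower than their broadly expressed relatives: Cox7a2 was 9.95 to 19.6 times the muscle isoform Cox7a1, and Cox6b1 was 20.5 to 57.7 times the testis isoform Cox6b2. Cox8b, a muscle isoform, had 0 counts in every library, which allows up to 0.0594 to 0.0706 CPM per library (3 counts, counting error only).

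In complex V the highest gene was Atp5j (coupling factor 6 of the stalk) at 3169.8, 3965 and 4395 TPM, and the lowest Atp5d (the delta subunit of the F1 stalk) at 310.1, 431 and 555 TPM. The catalytic beta subunit gene Atp5b had 1.70 to 1.93 times the TPM of Atp5a1, the alpha subunit gene, although F1 holds the proteins in equal number. Atp5g1, Atp5g2 and Atp5g3 encode the same mature protein, subunit c of the proton-driven rotor. Atp5g3 had 2601, 3129.8 and 3327 TPM, Atp5g1 had 1425, 1837 and 2045 TPM and Atp5g2 had 706, 781 and 804 TPM. Atp5g3 thus gave 54.3% of the summed subunit c messages on average, Atp5g1 31.9% and Atp5g2 13.8%, and the ranges of the 3 genes did not overlap.

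Most of the 39 genes varied little between libraries. The coefficient of variation of TPM over the 12 libraries was lowest for Atp5g2, at 4.05%, and highest for Atp5e, at 32.9%, followed by Uqcrc1 at 19.7%. Some levels are less certain than others. The expected counts were not whole (tolerance 0.005) for Uqcrc2, Cox7c and Atp5f1 in all 12 libraries and for Atp5j in 4, as RSEM gives where reads fit several genes, and whole for the other 35 genes.

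Most of the genes varied together across libraries, and a few varied together in the opposite direction. The median Pearson r of a gene with the other 38, on log2 CPM over the 12 libraries, was highest for Cox6c (0.80), a small subunit of complex IV, and for Cox7c (0.80). It was lowest for Uqcrc1 (-0.67), a core protein of complex III, Atp5d (-0.62), Cyc1 (-0.57), Atp5a1 (-0.44) and Atp5b (-0.42). These values are descriptions: the genes share library, depth and scaling. Outside the set, the genes whose level was most like the mean of the 39 were Ppia (r = 0.94), Ndufb5 (0.93), Tmem258 (0.93), Ndufv2 (0.93) and Cklf (0.92), of which Ndufb5 and Ndufv2 encode complex I subunits.

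Promoters are shown because genes for these complexes are known to share binding sites for NRF1, ETS factors (NRF2/GABP) and YY1. Promoters (250 bases before to 50 after the start, RefSeq, GRCm38.p6) were found for 31 of the 39 genes, Atp5f1 under its newer symbol Atp5pb. Both strands were searched for the NRF1 motif (GCGCA, any base, then GCGC), the ETS motif CCGGAAG and the YY1 motif AAGATGGCG, a choice made after the values had been seen. The NRF1 motif occurred in 10 of the 31 promoters (32.3%), against 5.19% of all genes with a promoter and 10.5% of the tested ones. The ETS motif occurred in 12 (38.7%, against 9.93% and 18.4%), and the YY1 motif in 2 (Atp5j and Atp5j2; 6.45%, against 1.64% and 3.24%). At least 1 of the motifs was present in 19 (61.3%, against 15.1% and 28.7%). The 120 bases upstream of the outermost annotated start (RefSeq or GENCODE) are given for 5 genes, from complexes II to V, with matches to the motifs in capitals. These 5 were picked after the data had been seen, and each has a match in its window, so they do not represent the 31 promoters.
Sdha, chr13:74350281-74350400 (- strand): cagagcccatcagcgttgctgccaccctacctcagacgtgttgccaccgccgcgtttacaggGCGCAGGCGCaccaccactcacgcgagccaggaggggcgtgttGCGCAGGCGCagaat
Sdhd, chr9:50603850-50603969 (- strand): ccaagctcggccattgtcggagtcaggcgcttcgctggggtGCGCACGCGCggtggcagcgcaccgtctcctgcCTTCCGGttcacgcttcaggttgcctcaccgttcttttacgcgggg
Uqcr11, chr10:80406831-80406950 (- strand): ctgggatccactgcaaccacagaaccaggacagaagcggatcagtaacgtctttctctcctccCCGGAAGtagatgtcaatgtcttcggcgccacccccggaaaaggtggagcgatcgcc
Cox6a1, chr5:115348982-115349101 (- strand): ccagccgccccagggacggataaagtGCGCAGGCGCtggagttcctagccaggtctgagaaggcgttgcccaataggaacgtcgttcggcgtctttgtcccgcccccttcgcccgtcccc
Atp5h, chr11:115419963-115420082 (- strand): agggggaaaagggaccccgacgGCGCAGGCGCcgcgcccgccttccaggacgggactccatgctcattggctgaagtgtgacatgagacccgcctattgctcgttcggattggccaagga
Sdha, with 2 NRF1 matches in this window, and Sdhd, with 1 NRF1 match and 1 ETS match (CTTCCGG, which is CCGGAAG on the other strand), belong to the same complex and, as given below, differed in the sign of their fold change. In the windows shown, Uqcr11 has an ETS match, and Cox6a1 and Atp5h an NRF1 match each. Outside these windows, the searched promoters of Cox6a1 and Atp5h also hold an ETS match each, and those of Cox6a1 and Sdha a further NRF1 match each. No match was found for Cox7c, the most abundant of the genes, in its searched window. Matches to different motifs overlapped in 0 of the 31 promoters. A match is a run of letters and not a measured binding site.

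The question of the knockdown, siNampt against siNT, was addressed over HFD and ND together with 4 libraries each. Most subunit genes had lower values in siNampt. The median log2 fold change of the 39 genes was -0.26 with 32 of them lower, while the median of all 14743 genes tested was 0.03. At an unadjusted p under 0.05, 24 of the 39 genes were lower, against a background of 5.05% of all genes tested, and 2 were higher (Uqcrc1 and Atp5d), against 6.1%. Of the 1376 tested genes shorter than 1000 bases (a limit chosen after seeing the data), 229 were lower and 15 higher at that p. No gene passed an adjusted p of 0.05 in edgeR's quasi-likelihood test (0% of all genes; smallest adjusted p 0.396), where 1645 genes had an unadjusted p under 0.05, and DESeq2 called 0 genes as well. With the counts corrected for GC content and transcript length (a spline fitted in each library) the median was -0.04, with 28 genes lower. The values below are therefore differences that missed the threshold over all genes and, for most of the genes named, became smaller under that correction.

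Complex IV had the lowest median, at -0.31, and all 11 of its genes had lower values in siNampt. At an unadjusted p under 0.05, 9 of them were lower, against 5.05% of all genes tested. The medians of the other complexes were -0.22 in complex II (3 of 4 genes lower), -0.20 in complex III (7 of 9 lower) and -0.25 in complex V (11 of 15 lower). These medians are from counts not corrected for GC content and length. With that correction only Cox6a1 and Cox8a of complex IV were lower at that p, and Cox7a2l and Cox7b changed sign. In CPM, 9 genes had every siNampt library below every siNT library, against a background of 2.71%: Sdhb and Sdhd of complex II, Uqcrfs1, Uqcrq and Uqcrb of complex III, Cox6b1 of complex IV, and Atp5g2, Atp5g3 and Atp5h of complex V. None of the 39 had every siNampt library above every siNT library (background 3.38%).

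**Figure D2:**
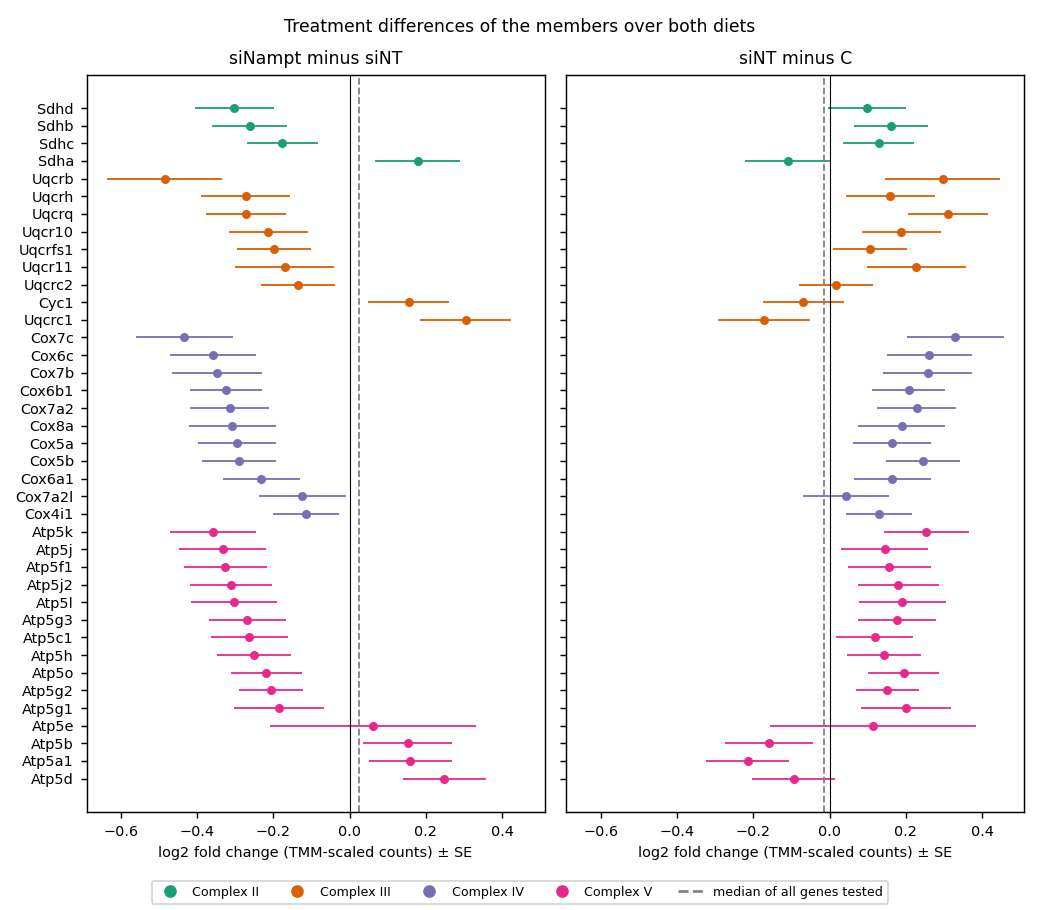
Log2 fold changes with their standard errors for siNampt minus siNT and for siNT minus C, by gene and complex, with the median of all genes tested as a dashed line. In the first panel 32 genes lie below 0, and in the second panel 33 genes lie above it; both comparisons use the same 4 siNT libraries.

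Uqcrb of complex III had the lowest log2 fold change of the 39 genes before the correction for GC content and length. It had 1049.9 and 653 CPM in HFD siNampt and 929 and 807 in ND siNampt, against 1104 and 1174 in HFD siNT and 1275 and 1263 in ND siNT. All siNampt values were below all siNT values, with HFD siNampt batch 2 lowest and HFD siNampt batch 1 near the siNT libraries. Its log2 fold change was -0.49 (SE 0.15), adjusted p = 0.396 in edgeR's quasi-likelihood test. With no filter on low counts (21789 genes) the same test gave Uqcrb -0.49 with a smaller SE (0.12) and an adjusted p of 0.0181. In that fit 4.53% of all genes were lower at an unadjusted p under 0.05. Further genes passed the adjusted p there, as counted at the end. Corrected for GC content and length, the log2 fold change of Uqcrb was -0.028 (SE 0.11), and the lowest of the 39 was then that of Cox8a, a small subunit of complex IV, at -0.30 (SE 0.11).

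Cox7c, the most abundant subunit gene, had 1473 and 1001 CPM in HFD siNampt and 1208 and 1117 in ND siNampt, against 1390.0 and 1604 in HFD siNT and 1757 and 1733 in ND siNT. The treatments overlapped within HFD, where 1 siNampt library lay above 1 siNT library, and were apart within ND. Its log2 fold change was -0.43 (SE 0.13). Cox6b1, which joins complex IV monomers on the side of the intermembrane space, had 989.9 and 776 CPM in HFD siNampt and 949.7 and 935 in ND siNampt, against 1048 and 1205 in HFD siNT and 1109 and 1206 in ND siNT. These groups did not overlap, and the log2 fold change was -0.32 (SE 0.09). With GC and length correction the log2 fold changes were -0.064 (SE 0.11) for Cox7c and -0.073 (SE 0.09) for Cox6b1.

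Further small subunits of complexes IV and V stood at like values. Cox6c had a log2 fold change of -0.36 (SE 0.11), and Cox7a2 one of -0.31 (SE 0.10). Atp5k, the e subunit found where ATP synthases pair into dimers, had -0.36 (SE 0.11); all of these had an adjusted p of 0.396 in edgeR's quasi-likelihood test. In each of these 3 genes the HFD siNampt batch 1 library lay inside the siNT range and the other 3 siNampt libraries below it. The GC and length corrected values were -0.057 (SE 0.10) for Cox6c, -0.16 (SE 0.09) for Cox7a2 and -0.14 (SE 0.10) for Atp5k.

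Complex II held values of both signs. Sdhb had 475 and 422 CPM in HFD siNampt and 479.7 and 450.0 in ND siNampt, against 482 and 601 in HFD siNT and 559 and 549 in ND siNT, a log2 fold change of -0.26 (SE 0.10), with groups that did not overlap. Sdhd had 323 and 282 CPM in HFD siNampt and 357 and 334 in ND siNampt, against 367 and 388 in HFD siNT and 438 and 406 in ND siNT, with a log2 fold change of -0.30 (SE 0.10), again with no overlap. Sdha had the opposite sign, with 104 and 100.4 CPM in HFD siNampt and 119.5 and 95.8 in ND siNampt, against 92.8 and 98.1 in HFD siNT and 101 and 79.5 in ND siNT, overlapping groups and a log2 fold change of 0.18 (SE 0.11). In TPM the Sdha groups were apart, with 39.2 and 41.5 TPM in HFD siNampt and 45.4 and 36.7 in ND siNampt, against 36.2 and 33.5 in HFD siNT and 33.8 and 26.9 in ND siNT. Of all genes tested, 5.32% were higher in siNampt without overlap in TPM. Corrected for GC content and length, Sdhb had a log2 fold change of -0.28 (SE 0.10), Sdhd one of -0.19 (SE 0.09) and Sdha one of 0.18 (SE 0.10).

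The 7 genes with values above 0 were Uqcrc1 (0.30), Atp5d (0.25), Sdha (0.18), Atp5a1 (0.16), Cyc1 (0.15), Atp5b (0.15) and Atp5e (0.06). Apart from Atp5e they encode a flavoprotein, a core protein, cytochrome c1 and the alpha, beta and delta subunits of the F1 head and stalk. Other genes for the catalytic or redox parts had negative values, among them Sdhb, the Rieske gene Uqcrfs1 (-0.20) and the gamma subunit gene Atp5c1 (-0.26). Uqcrc1 had 529 and 792 CPM in HFD siNampt and 701 and 681 in ND siNampt, against 566 and 549 in HFD siNT and 577 and 495 in ND siNT. The HFD siNampt batch 1 library lay among the siNT libraries and the other 3 siNampt libraries above them; the log2 fold change was 0.30 (SE 0.12), with an unadjusted p of 0.023 and an adjusted p of 0.396 in edgeR's quasi-likelihood test. Corrected for GC content and length, the values were 0.10 for Uqcrc1, 0.12 for Atp5d, -0.069 for Uqcrfs1 and -0.11 for Atp5c1, and the signs of Uqcrc2 (0.0078), Cox7a2l (0.014), Cox7b (0.0015) and Atp5l (0.02) turned positive.

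**Figure D3:**
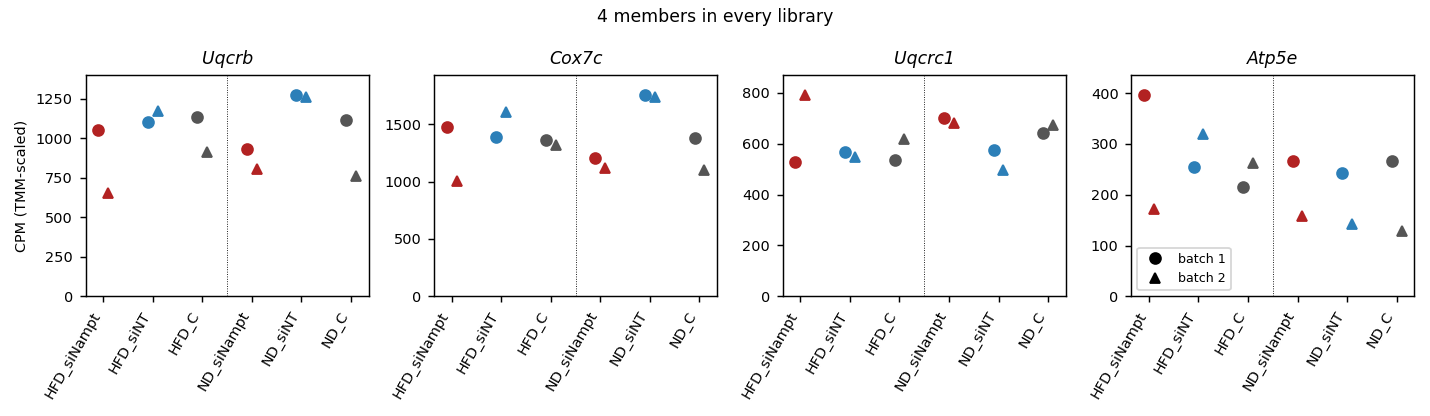
TMM-scaled CPM of Uqcrb, Cox7c, Uqcrc1 and Atp5e in each library, by group, with batch 1 as circles and batch 2 as triangles; the 4 genes were picked after their values had been seen. Uqcrb and Cox7c were lowest in HFD siNampt batch 2, where Uqcrc1 was highest, and Atp5e was highest in HFD siNampt batch 1.

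The difference between siNampt and siNT was not even over the 4 pairs of libraries with the same label and batch. The median over the 39 genes was -0.02 in HFD batch 1 (21 genes lower), -0.46 in HFD batch 2 (33 lower), -0.26 in ND batch 1 (32 lower) and -0.28 in ND batch 2 (32 lower). Averaged over the labels within a batch it was -0.14 in batch 1 and -0.37 in batch 2. Leaving out 1 library at a time gave medians between -0.31 and -0.20 and between 16 and 27 genes lower at an unadjusted p under 0.05. The value nearest 0, with the 16 genes, was the one without HFD siNampt batch 2, where 3.09% of all genes were lower. The 27 genes were those without HFD siNampt batch 1, where 6.49% of all genes were lower.

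**Figure D4:**
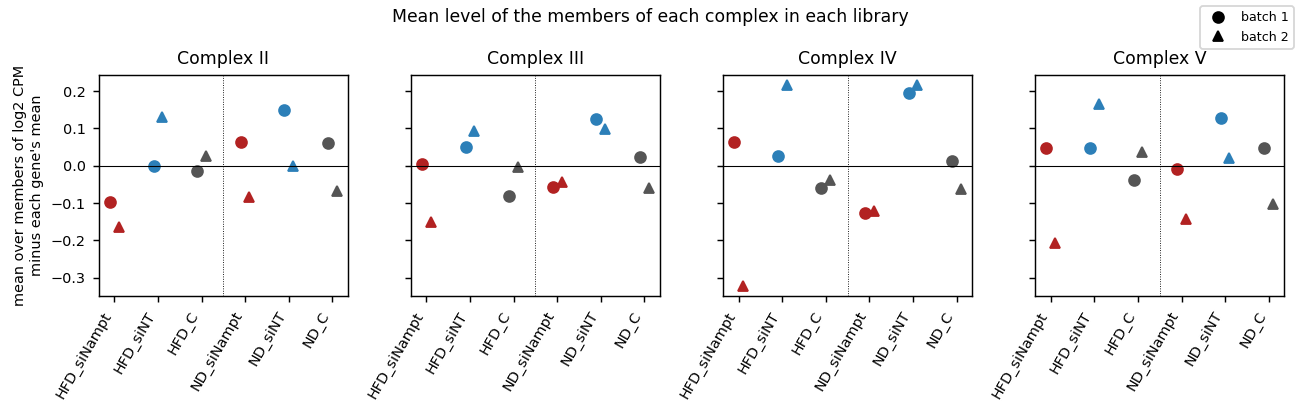
Mean over the genes of each complex of log2 CPM minus the gene's own mean over the 12 libraries, by group and batch. For complex IV the HFD siNampt batch 2 library is lowest at -0.32, and 3 of the 4 siNT libraries lie between 0.20 and 0.22 with HFD siNT batch 1 at 0.03.

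Transcript length went with these differences. Over all genes tested shorter than 1000 bases, a limit chosen after seeing the data, the median of siNampt against siNT was -0.17, and over longer genes it was 0.05. The 25 subunit genes below that limit had a median of -0.27 (23 lower) and the 14 longer ones a median of -0.16 (9 lower). At an unadjusted p under 0.05, 19 of these 25 were lower and 1 higher, beside 229 lower and 15 higher of all 1376 tested genes below the limit. Over the 39 genes the log2 fold change and log2 length had r = 0.59 and rho = 0.51, a description across genes that share libraries. With a correction of the counts for length the median of the 39 genes was -0.08, with 3 genes lower and 2 higher at an unadjusted p under 0.05, against 4.5% and 5.9% of all genes. With a correction for GC content and length it was -0.04 (all genes 0.03), with 5 lower (Sdhb, Sdhd, Cox6a1, Cox8a and Atp5f1) and 0 higher, against 1.39% and 3.57% of all genes.

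**Figure D5:**
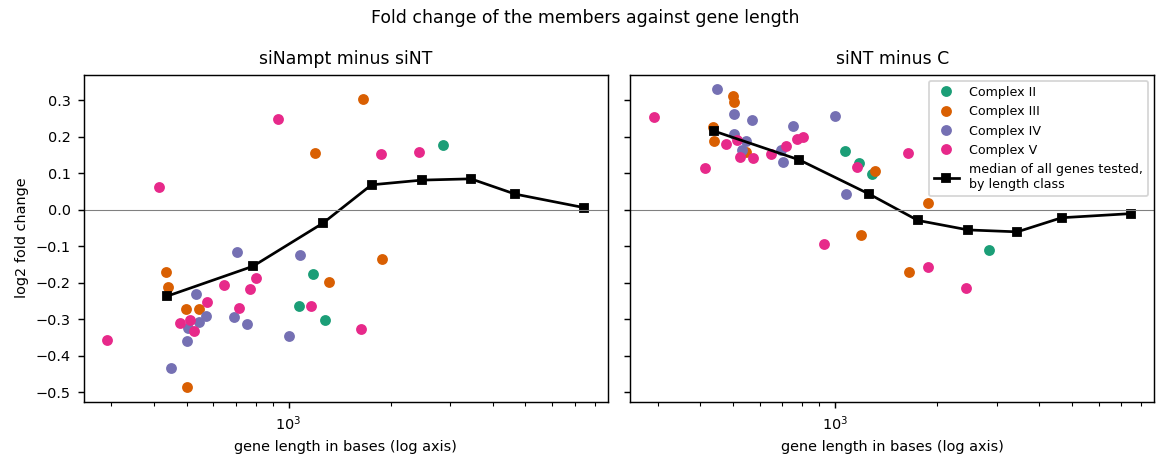
Log2 fold change of each of the 39 genes against gene length (log axis), with the median of all genes tested in 8 length classes as black squares. In siNampt minus siNT the classes under 500 and from 500 to 1000 bases have medians of -0.24 and -0.16, and in siNT minus C the same classes have medians of 0.22 and 0.14.

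On the TPM scale, which is per length, the median of the 39 genes was -0.10 in siNampt against siNT (limma on log2(TPM + 1), all genes 0.07), with 2 genes lower and 6 higher at an unadjusted p under 0.05, against 1.02% and 12.6% of all genes. With a pseudocount of 0.1 the median of all genes was 0.14, and that of the 39 genes -0.10. In TPM, 2 of the 39 genes had every siNampt library below every siNT library (Sdhb and Cox6b1; background 0.828%), and 1 had every siNampt library above (Sdha; background 5.32%).

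Markers of embryo sex and of the blastocyst lineages differed between libraries as well. Summed Y-linked transcripts (4 genes) were 34.8 to 174 TPM in siNampt, 83.4 to 184 TPM in siNT and 54.9 to 154 TPM in C. With the mean log2 CPM of these genes as a covariate the median of the 39 genes was -0.20, and 2 genes were lower at an unadjusted p under 0.05 (2.23% of all genes). Of 12 trophectoderm markers 9 had higher values in siNampt than in siNT (median 0.31; 3 higher and 1 lower at an unadjusted p under 0.05, against 6.1% and 5.05% of all genes), with summed levels of 5732 to 8052 TPM in siNampt, 4937 to 6458 TPM in siNT and 5478 to 6675 TPM in C. Of 10 inner cell mass markers 7 had lower values (median -0.17), with sums of 348 to 514 TPM in siNampt, 337 to 453 TPM in siNT and 381 to 433 TPM in C. Summed primitive endoderm markers (8 genes) were 64.99 to 103.31 TPM in siNampt, 64.76 to 71.79 TPM in siNT and 61.21 to 90.35 TPM in C. The part of these markers in the result was not tested, and in bulk pools fewer cells of a type and less RNA per cell cannot be told apart.

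The second comparison set siNT, with its non-targeting siRNA, against C, for which no siRNA is stated. Here 33 of the 39 genes had higher values in siNT, with a median of 0.16 against -0.01 for all genes. At an unadjusted p under 0.05, 8 genes were higher, against a background of 1.97%, and 0 lower (2.42%). In CPM 13 genes had every siNT library above every C library (background 1.51%), and none had every siNT library below (1.76%). The 13 were Uqcrq, Uqcr10 and Uqcr11 of complex III, Cox6a1, Cox6b1, Cox6c and Cox7c of complex IV, and Atp5g2, Atp5g3, Atp5h, Atp5j2, Atp5k and Atp5o of complex V. No gene passed the adjusted p (0% of all genes; smallest 0.984 in edgeR's quasi-likelihood test, 648 genes at an unadjusted p under 0.05), while DESeq2 called 2 genes.

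Uqcrq, a small subunit of complex III, had 545 and 572 CPM in HFD siNT and 549 and 563 in ND siNT, against 392 and 480.0 in HFD C and 467 and 458 in ND C. The 4 siNT values lay close together and above all C values, and the log2 fold change was 0.31 (SE 0.10). Cox7c had 1390.0 and 1604 CPM in HFD siNT and 1757 and 1733 in ND siNT, against 1358 and 1317 in HFD C and 1379 and 1103 in ND C, with a log2 fold change of 0.33 (SE 0.13), also with no overlap. Cox5b, the zinc-binding subunit of complex IV, had 0.25 (SE 0.10), Cox6c 0.26 (SE 0.11), Atp5k 0.25 (SE 0.11) and Cox7a2 0.23 (SE 0.10), all with an adjusted p of 0.984. Cox5b and Cox7a2 overlapped between siNT and C. The genes with negative values were Atp5a1 (-0.21), Uqcrc1 (-0.17), Atp5b (-0.16), Sdha (-0.11), Atp5d (-0.09) and Cyc1 (-0.07). The siNT libraries are shared with the comparison to siNampt, so the opposite signs of these comparisons are not separate observations. All tested genes under 1000 bases had a median of 0.14 in siNT against C, and corrected for length the 39 genes had a median of 0.02. Corrected for GC content and length the median was 0.04, with Uqcrq at 0.13, Cox7c at 0.092, Cox5b at 0.064, Cox6c at 0.061, Atp5k at 0.033 and Cox7a2 at 0.12.

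The third comparison was siNampt against C, which shares libraries with both others. The median of the 39 genes was -0.09 (all genes 0.01) with 30 lower, and 0 genes reached an unadjusted p under 0.05 in either direction (background 1.61% lower and 2.19% higher). None of the 39 separated the groups in CPM (0.861% lower and 1.45% higher among all genes). No gene passed the adjusted p (0% of all genes) in edgeR's quasi-likelihood test, in which 560 genes had an unadjusted p under 0.05, and DESeq2 called 1 gene. The lowest p-values belonged to Sdhd (-0.20, SE 0.10), Atp5j (-0.19, SE 0.11), Atp5f1 (-0.17, SE 0.11), which encodes the b subunit of the peripheral stalk, Atp5c1 (-0.14, SE 0.10), Atp5d (0.15, SE 0.11) and Cox5a (-0.13, SE 0.10), all with an adjusted p of 0.999. Sdhd had 323 and 282 CPM in HFD siNampt and 357 and 334 in ND siNampt, against 412 and 348 in HFD C and 397 and 332 in ND C, and the groups overlapped. With GC and length correction the median was -0.03, Sdhd had -0.13, and Atp5d, at -0.028, had the opposite sign.

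Within each label the knockdown had 2 libraries a group. In HFD the median of the 39 genes was -0.23, with 4 genes lower at an unadjusted p under 0.05 (background 2.31%) and 0 higher (1.97%), and the lowest p-values were those of Atp5f1 (-0.40, SE 0.15), Cox6b1 (-0.35, SE 0.14) and Sdhc (-0.29, SE 0.13). In ND the median was -0.27, with 10 genes lower (background 3.74%) and 1 higher, Atp5b (background 4.61%), and the lowest p-values were those of Cox7c (-0.59, SE 0.18), Atp5k (-0.46, SE 0.16) and Cox7b (-0.44, SE 0.17), an X-linked gene of complex IV. In edgeR's quasi-likelihood test 0 genes passed the adjusted p in either label (630 genes in HFD and 1230 in ND at an unadjusted p under 0.05), and DESeq2 called 2 and 0. The HFD median was -0.09 without HFD siNampt batch 2 and -0.38 without HFD siNampt batch 1, with 2 and 20 genes lower at an unadjusted p under 0.05, against 3.71% and 4.28% of all genes. The count was 0 without HFD siNT batch 2 (0.908% of all genes) and 7 without HFD siNT batch 1 (2.63%). With GC and length correction the median was -0.09 in HFD (31 of 39 lower) and -0.0059 in ND (21 of 39 lower), and Cox7c in ND had -0.086.

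The difference between the labels in the knockdown response was tested as an interaction. Its median over the 39 genes was 0.03, and 0 genes reached an unadjusted p under 0.05 (background 1.62% lower and 1.44% higher). The median turned negative with length correction (-0.08), with GC and length correction (-0.09) and on the TPM scale (-0.01). Atp5b had an interaction of -0.41 (SE 0.22), from log2 fold changes of -0.05 in HFD and 0.35 in ND, with an unadjusted p of 0.0842 and an adjusted p of 1.00 in edgeR's quasi-likelihood test. Cox7c had 0.31 (SE 0.25) and Sdhc -0.23 (SE 0.18). The response of these genes was not shown to differ between HFD and ND.

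HFD was compared with ND over all treatments, with 6 libraries each. The 39 genes had a median of -0.02 (all genes 0.00), 29 of them lower, and 0 reached an unadjusted p under 0.05 (background 1.49% lower and 1.72% higher) or separated the labels (0.0475% each way). No gene passed the adjusted p (0% of all genes; 474 genes at an unadjusted p under 0.05) in edgeR's quasi-likelihood test, and DESeq2 called 2. The median turned positive with length correction (0.02), with GC and length correction (0.03) and on the TPM scale (0.01). Split by batch, the 39 genes had medians of -0.03 (batch 1) and -0.01 (batch 2). After Atp5e, the lowest p-values were those of Sdhd (-0.10, SE 0.08), Cox7a2 (-0.09, SE 0.08), Atp5g2 (-0.05, SE 0.07), Cox6b1 (-0.06, SE 0.08) and Atp5j (-0.07, SE 0.09).

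Atp5e, the epsilon subunit of the F1 stalk, was the most variable of the 39 genes and had the lowest p-value among them in this comparison. It had 397 and 173 CPM in HFD siNampt, 255 and 319.6 in HFD siNT and 214 and 263 in HFD C, against 267 and 157 in ND siNampt, 243 and 142 in ND siNT and 265 and 129 in ND C. The 3 ND libraries of batch 2 were the lowest of the 12, and the ND libraries of batch 1 lay within the HFD range. The log2 fold change of HFD against ND was 0.43 (SE 0.22), with an unadjusted p of 0.0737 and an adjusted p of 1.00 in edgeR's quasi-likelihood test. With no filter on low counts (21789 genes) the same test gave a log2 fold change of 0.42 with a smaller SE (0.11) and an adjusted p of 0.0165. In that fit 2.38% of all genes were higher at an unadjusted p under 0.05. Further genes passed the adjusted p there, as counted at the end.

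Neighbouring gene groups of the same pathway were described in siNampt against siNT beside the 39 genes. Their values are from counts not corrected for GC content and length, and corrected values are not given for them. That correction took the median of the 39 genes from -0.26 to -0.04. Uncorrected, all tested genes shorter than 1000 bases had a median of -0.17. Of 36 nuclear complex I genes 33 had lower values (median -0.21; 18 lower and 1 higher at an unadjusted p under 0.05, against 5.05% and 6.1% of all genes), with Ndufv2, a subunit of the NADH-oxidising arm, at -0.42 (SE 0.10) and Ndufab1, the mitochondrial acyl carrier protein, at -0.37 (SE 0.10). Of 23 assembly factors of complex IV 15 had lower values (median -0.08; 3 lower and 0 higher), with the copper chaperone Cox17 at -0.30 (SE 0.12) and Cmc1 at -0.40 (SE 0.16). Assembly factors of complex II (3 of 4 lower), complex III (5 of 6) and complex V (2 of 3) had medians of -0.18, -0.15 and -0.09, with Sdhaf3 at -0.37 (SE 0.15) and Sdhaf4 at -0.24 (SE 0.14), Bcs1l, which inserts the Rieske protein, at -0.16 (SE 0.14) and Uqcc2 at -0.16 (SE 0.14), and Tmem70 at -0.15 (SE 0.12) and Atpaf1 at -0.09 (SE 0.11). All 7 further subunits and regulators had lower values (median -0.33; 7 at an unadjusted p under 0.05, background 5.05%), with Ndufa4, now counted to complex IV, at -0.37 (SE 0.12) and Usmg5, a small ATP synthase subunit, at -0.38 (SE 0.13).

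Electron carriers and exchange proteins had a median of -0.13 (13 of 17 lower; 1 lower and 1 higher at an unadjusted p under 0.05, where all genes had 5.05% lower and 6.1% higher), with cytochrome c (Cycs) at -0.41 (SE 0.14) and Coq9, of ubiquinone synthesis, at 0.27 (SE 0.12). Of 13 listed transcription regulators of the chain 11 were tested and 6 had lower values (median -0.10). Tfb1m, a methyltransferase of mitochondrial ribosomal RNA, had -0.56 (SE 0.14). The mitochondrial RNA polymerase Polrmt, at a mean level of only 0.93 TPM, had 0.34 (SE 0.21). Of 7 listed tissue isoforms of complex IV 6 were tested and 5 had lower values (median -0.18). Cox7a1 had -0.38 (SE 0.20), and Cox6a2, at a mean level of only 0.47 TPM, had -0.90 (SE 0.72). Cytosolic ribosomal protein genes, which are also short and abundant, had a median of -0.20 (78 of 81 lower; 32 lower and 0 higher at that p), with Rpl30 at -0.39 (SE 0.11) and Rps13 at -0.33 (SE 0.10). Mitochondrial ribosomal protein genes had -0.14 (59 of 77 lower; 22 lower and 2 higher at that p, with the same shares of all genes as above), with Mrps36 at -0.34 (SE 0.11) and Mrps5 at 0.44 (SE 0.14). The adjusted p of these named genes ran from 0.396 to 0.788 in edgeR's quasi-likelihood test.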

How the data were processed

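Pools of blastocysts were profiled by RNA-seq with a SMART-Seq kit on poly(A) RNA, per the labels' protocols. STAR 2.7.10, RSEM 1.2.28 and the build mm10 are named in the submitters' processing notes; no further settings are given in the sources used here, nor whether the libraries keep strand. Per the file headers, each deposited table holds RSEM's expected count, TPM, FPKM (not used here), length and effective length per gene. Fractions in 6.43% of the deposited expected counts were removed by rounding.

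The filter (edgeR's filterByExpr on the 6 groups, minimum count 10) retained 14743 genes out of 24411. After TMM scaling, two-sided quasi-likelihood tests were run (edgeR 4.0.16, R 4.3.3) with all 12 libraries in each fit. An additive model of label and treatment gave 4 comparisons, and fits with 1 mean per group served for the knockdown within HFD and within ND and for their interaction. P-values were adjusted with Benjamini-Hochberg over all genes tested, threshold 0.05. The SE of a log2 fold change is its size divided by the square root of F. Depth of 42473129 to 50503064 counts per library makes counting error small for these genes.

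Alternatives were RLE scaling, DESeq2 1.42.0, no filter, a stricter filter (5 CPM in 2 libraries), limma 3.58.1 on log2 of the deposited TPM plus 1 or plus 0.1, splines (5 df) for length and for GC content and length, mean log2 CPM of Y-linked genes as a covariate, only the libraries compared, a replicate block and leaving out each library. GC content came from GENCODE M21 transcripts. Coordinates are GRCm38 (the build mm10). The labels give same-numbered replicates the same batch, so the numbers pair the libraries; over 15 pairs of groups their deviations had r of -0.11 to 0.56 (median 0.16, 10 above 0.1). The tests were tried on simulated counts first.

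Levels by library are named for the highest and lowest gene of each complex, the Sdh genes, Atp5g1 to Atp5g3, Cox7a2 and Cox7a2l, and fold changes for the 6 lowest p-values of each comparison (3 within labels and for the interaction), the 2 lowest of each other list in siNampt against siNT, and the 5 genes most like the mean. Other genes were named after their values had been seen. The 39 genes and all lists were chosen with earlier results of these data known.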

Additional observations from a re-analysis of the deposited data

Results flagged for a closer look

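Of 96 sets of 4 libraries of a treatment that were examined, 2 held a library far from the other 3, and chance gives about 1 in 20. The mean of the complex IV genes (log2 CPM minus each gene's mean) in siNT was 0.025 in HFD siNT batch 1, while the other siNT libraries lay between 0.20 and 0.22. That library also had the smallest gap between length and effective length, 186 bases, against a highest gap of 231 bases. Log2 CPM of Atp5c1, the gamma subunit gene of ATP synthase, was 10.2 in ND siNampt batch 1, while the other siNampt libraries lay between 9.98 and 10.01.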

How the results depend on the processing

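Of 6513 values of the 39 genes under all alternatives, 5972 kept their sign, and of 273 with GC and length correction (7 comparisons) 77 changed it, against 69 with length correction and 43 on TPM. Of 810 values of the few genes named for each comparison by their low p, and of Nampt, 802 kept their sign. Those members were picked by their p in the main fit, and the alternatives refit the same libraries, so this count is not a separate check. The median log2 fold change of the 39 genes moved by more than the replicate spread (0.0915) in these cases. For siNampt against siNT it was -0.096 on TPM (either pseudocount), -0.081 with length correction, -0.039 with GC and length correction and -0.041 with that and the replicate block. For siNT against C it was 0.018 on TPM, 0.020 (length), 0.038 (GC and length) and 0.040 (with the block). In HFD it was -0.072 on TPM, -0.12 (length), -0.094 (GC and length), -0.11 (with the block) and -0.13 with the Y-linked covariate. In ND it was -0.083 on TPM, -0.032 (length), -0.0059 (GC and length) and -0.014 (with the block). For the interaction it was -0.079 (length), -0.091 (GC and length) and -0.088 (with the block). Without HFD siNampt replicate 1 it was -0.38 in HFD and -0.11 for the interaction. Without HFD siNampt replicate 2 it was -0.092 in HFD and 0.19 for the interaction. Among those named genes the sign changed with length correction for Atp5k in siNT against C (-0.010) and in the ND knockdown (0.031), and for Atp5g2 (0.0072) and Cox6b1 (0.0054) in HFD against ND. With GC and length correction it changed for Atp5d in siNampt against C (-0.028) and Cox6b1 in HFD against ND (0.016), and likewise with the block added (-0.030 and 0.017). The cause of these changes was not tested.

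With no filter on low counts edgeR called 119 genes for siNampt against siNT, 76 for siNT against C, 71 for siNampt against C, 99 for HFD against ND, 68 in HFD, 108 in ND and 40 for the interaction, against 0 with the filter. DESeq2 called 2 for siNT against C, 1 for siNampt against C, 2 for HFD against ND and 2 in HFD. Leaving out 1 library gave 0 to 1 genes for HFD against ND, 0 to 1 in HFD and 0 to 2 for the interaction, with medians of the 39 genes of -0.38 (without HFD siNampt replicate 1) to -0.092 (without replicate 2) in HFD and -0.11 to 0.19 for the interaction. The replicate block alone, which follows the batch label, gave medians of -0.26 (siNampt against siNT), 0.16 (siNT against C) and -0.092 (siNampt against C) and changed no call. At these depths counting error is small for the 39 genes, and each group has 2 libraries. For HFD against ND, a fit on only the libraries compared is the same fit, so it has no separate value.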
